A study of Mus musculus with 8 samples.

Results

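miR-335 is a microRNA (miRNA), a short RNA that lowers the output of the mRNAs it pairs with, and both arms cut from its hairpin were followed here, miR-335-5p and miR-335-3p. They were taken by name from the array, with all of their probes, and make 2 of the 611 mouse miRNAs measured. Neither arm was detected on any of the 8 arrays, in cells with or without hedgehog protein. The study asked how a brachydactyly mutation of Indian hedgehog changes the response of mesenchymal cells. C3H10T1/2 cells, a mouse mesenchymal line that responds to hedgehog proteins, were incubated for 48 h with 750 nM recombinant human IhhN, the signalling part of Indian hedgehog, either wild type (WT group) or with the E95K mutation (MT group). The control group was the same line, labelled as normal cells with no protein induction. Its labels also give the 750 nM dose, which goes against that description, and the group was used as not induced.

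Each group had 2 RNA samples. Both RNA samples of the WT group were hybridized on 2 arrays each, and those of the MT and control groups on 1 array each. One cell line is the only model, the proteins came from bacteria, and nothing in the labels says that the 2 RNA samples of a group came from separate cultures, so the spread given here may be technical. In bulk RNA, fewer cells with a miRNA and less of it in each cell cannot be told apart.

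miR-335 lies inside Mest, an imprinted gene that is transcribed from the paternal chromosome, and is processed from the same transcript. In mesenchymal stem cells it is known for targeting Runx2, the master transcription factor of osteoblasts, and in the mouse it has also been reported to target Dkk1, an inhibitor of Wnt signalling. In the RefSeq annotation of GRCm38.p6 the hairpin gene Mir335 is on the plus strand at chr6:30741299-30741396, within the span of Mest and between the protein-coding neighbours Cep41 and Copg2. The arms are at chr6:30741314-30741336 (5p) and chr6:30741354-30741375 (3p). The 3 sequences are shown because the probes were designed against the arms, with capitals for the arms within the hairpin and for the seed, bases 2 to 8, within each arm.
Mir335 hairpin: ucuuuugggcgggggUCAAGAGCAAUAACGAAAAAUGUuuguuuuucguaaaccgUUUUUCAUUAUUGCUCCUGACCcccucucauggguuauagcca
mmu-miR-335-5p: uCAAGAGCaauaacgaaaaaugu
mmu-miR-335-3p: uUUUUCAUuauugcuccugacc

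No other of the 1679 mature mouse miRNA names in the RefSeq table had the seed of either arm. With the shorter seed of bases 2 to 7, miR-7646-5p matched the 5p arm and miR-6986-3p the 3p arm, and neither was on the array. The 5p arm has 23 bases with 30.43% G and C, and the 3p arm has 22 bases with 36.36%. RefSeq held a sequence for 86 of the 103 miRNAs detected on all 8 arrays. Of these, 10 had no more G and C than the 3p arm, and none had as little as the 5p arm, with 31.82% for the lowest. The 2 printed here, seed in capitals, are among the 4 at that lowest value, and were chosen after their detection was known.
mmu-let-7f-5p: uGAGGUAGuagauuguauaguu
mmu-miR-450a-5p: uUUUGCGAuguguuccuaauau

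The array itself gave the arms many readings. The 5p arm had 2 probes of 10 spots each (A_54_P2687 and A_54_P2688), and the 3p arm had 4 probes of 5 spots each (A_54_P2690 to A_54_P2693). This made 20 spots per arm on an array and 320 readings in all. The values are background-subtracted spot intensities in linear signal units, which fall below 0 where a spot is dimmer than its estimated background. A probe was called detected where over 50% of its spots, outliers left out, were marked as well above background. By that rule 104 to 150 mouse miRNAs were detected on an array, 449 were detected on none and 103 on all 8. The labelled cell type was checked against its markers, and 9 of the 11 listed mesenchymal miRNA arms were detected on at least 1 array, against 1 of 37 markers of liver, neurons, blood, muscle, epithelium and pluripotent cells (miR-290-3p, on 1 array).

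The typical spot of miR-335-5p read below 0 on every array. Its median over the spots of an array, outliers left out, was -5.45 and -6.39 on the arrays of WT replicate 1, and -4.56 and -5.77 on those of WT replicate 2. The MT arrays gave -4.52 and -3.81, and the control arrays -4.17 and -6.41. Both MT arrays lay above the 4 WT arrays, the lower one by less than 0.05 units, and the control arrays overlapped both groups. The same order of MT over WT, without overlap, was found in 9.8% of the 449 mouse miRNAs detected on no array. The lowest signal that counted as well above background lay between 14.97 and 37.4 on the arrays, which put the median 5p spot 18.8 to 42.9 units short of it. Among the 434 negative control spots of an array, which match no miRNA, between 0 and 2.76% read lower than this median.

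The typical spot of miR-335-3p, the opposite arm of the hairpin, read just above 0 and within the range of the negative controls. Its median, taken in the same way, was 2.62 and 1.02 on the arrays of WT replicate 1, and 2.47 and 1.46 on those of WT replicate 2. The MT arrays gave 2.70 and 3.72, and the control arrays 2.28 and 0.914. The MT arrays were the 2 highest, above all WT and control arrays, while WT and control overlapped. Of the 449 undetected miRNAs, 9.8% had MT over WT in this way and 16.3% had MT over control. No array came near its limit, with gaps of 11.3 to 34.8 units. The negative control spots had medians of 3.56 to 4.56, and 14.98% to 49.8% of them read lower than the median 3p spot.

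**Figure D1:**
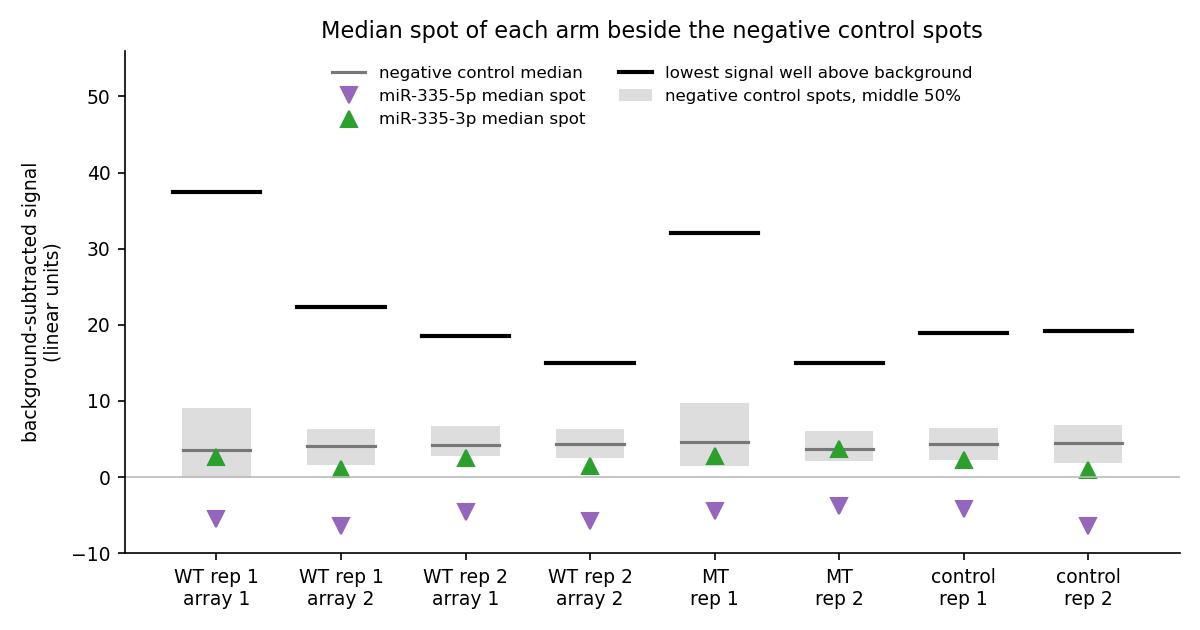
Median background-subtracted signal, outlier spots left out, of miR-335-5p (down triangles) and miR-335-3p (up triangles) on each of the 8 arrays, in linear units. Grey boxes span the middle 50% of the negative control spots with their median, and black lines mark the lowest signal well above background. The 5p medians (-6.41 to -3.81) lie under the boxes and the 3p medians (0.914 to 3.72) near or below the control median, all far under the black lines.

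Single bright spots were rare and none was kept. Of the 320 readings of the arms, 10 were well above background, 6 of 160 for the 5p arm (18.0 to 108) and 4 of 160 for the 3p arm (36.2 to 91.7). Feature Extraction marked each of the 10 as an outlier, and each was a different one of the 40 spots. The mark covers non-uniform spots and outliers within a population of spots, which were not told apart. By group they were 5 of 160 readings for WT, 5 of 80 for MT and 0 of 80 for control. Readings well above background also occurred in the other probes that were detected on no array. Over all 1465 such probes they made 1.34% of the WT readings, 3.07% of the MT readings and 1.23% of the control readings, and 71.0% of them were marked as outliers. The brightest readings of the arms that were not outliers were 30.5 (5p) and 31.1 (3p), both on the array of MT replicate 1, where the limit was 32.0.

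**Figure D2:**
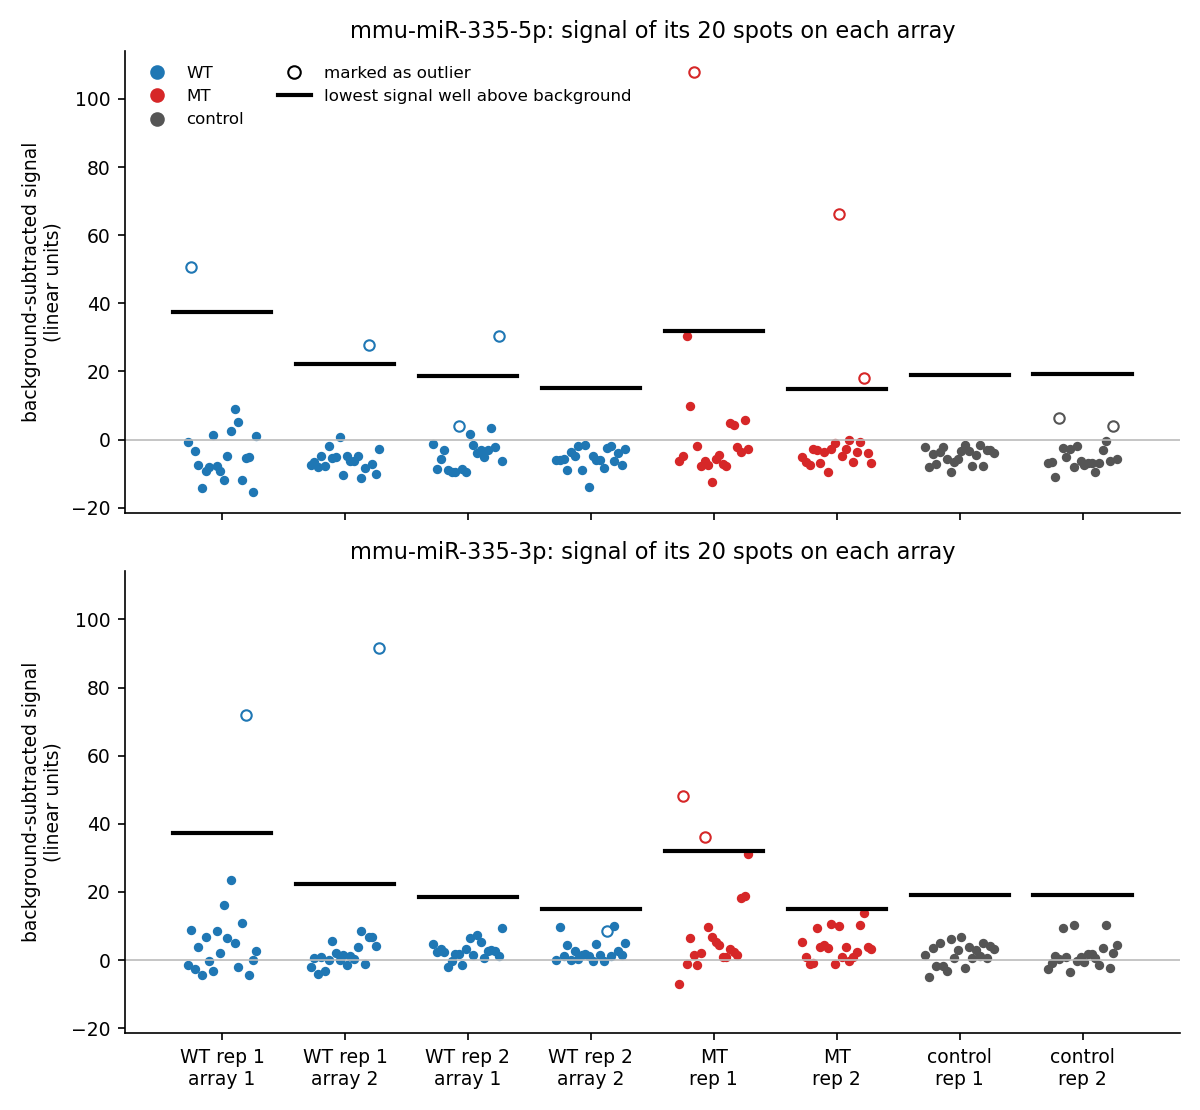
Background-subtracted signal (linear units) of each of the 20 spots of miR-335-5p (top) and miR-335-3p (bottom) on the 8 arrays, coloured by group. Open points are spots marked as outliers, and black lines mark the lowest signal well above background on that array. Every filled point lies under its line, and the 10 points above a line are open and lie on WT and MT arrays.

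**Figure D3:**
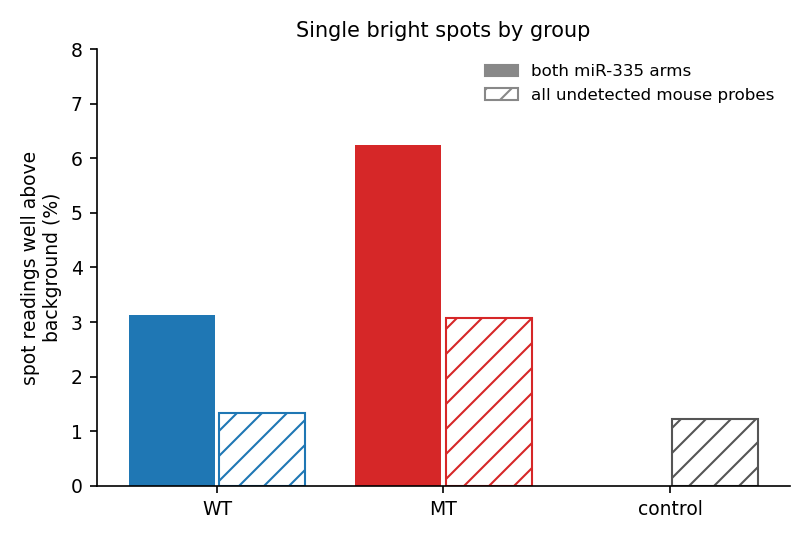
Share of spot readings well above background (%) in the WT, MT and control groups, for the miR-335 arms (filled bars) and for all mouse probes detected on no array (hatched bars). The arms had 5 of 160, 5 of 80 and 0 of 80 such readings, and the hatched bars stand at 1.34%, 3.07% and 1.23%.

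To compare the groups, each array was scaled to the 75th percentile of its detected probes, outlier spots were left out and the brightest probe of each arm was taken. In miR-335-5p (A_54_P2688) the scaled signal was -5.71 and -3.99 in the WT samples, -2.21 and -4.44 in the MT samples and -2.64 and -5.05 in the control samples. The order of the means was MT (-3.33 ± 1.57, SD, n = 2), control (-3.84 ± 1.71) and WT (-4.85 ± 1.22), and each group overlapped the others. Relative to control the difference was 0.518 in MT and -1.01 in WT, and WT minus MT was -1.53, each with an exact two-sided permutation p = 0.667. With 2 samples against 2 this test cannot go below 0.333. The other 5p probe (A_54_P2687) gave -6.54 and -6.89 in WT, -0.905 and -5.84 in MT and -3.66 and -4.84 in control, so its WT samples lay below both other groups. A separation of this kind was seen in the brightest probe of 25.6% of the 449 mouse miRNAs detected on no array for WT under control, and of 19.8% for WT under MT. A_54_P2687 is not the brightest 5p probe, and the share over single probes was not computed for these directions.

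In miR-335-3p (A_54_P2693) the scaled signal was 3.45 and 4.13 in the WT samples, 16.8 and 8.08 in the MT samples and 1.89 and 3.09 in the control samples. Here the groups did not overlap, with MT highest (12.5 ± 6.20, SD, n = 2), then WT (3.79 ± 0.485) and control (2.49 ± 0.845). Relative to control the difference was 9.97 in MT and 1.30 in WT, and WT minus MT was -8.67, each with the smallest exact permutation p that the design allows, 0.333. Over the 6 comparisons of the 2 arms, every Benjamini-Hochberg adjusted value of the exact permutation test was 0.667. Among the same 449 undetected miRNAs, 22.7% separated with MT over control, 18.7% with WT over control and 19.8% with WT under MT. These comparisons share their control or MT samples. The high MT values of A_54_P2693 also entered its choice as the brightest probe, so its MT differences are not independent of that choice. In A_54_P2690, A_54_P2691 and A_54_P2692, MT minus control was 0.689, 4.04 and 2.55. WT minus MT was -0.383, -3.16 and 1.07 in turn.

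In the probe chosen in this way, the MT difference of the 3p arm was large for an undetected miRNA. Of those 449 miRNAs, 19 (4.23%) had a larger MT minus control difference than miR-335-3p, and their median difference was 0.638. In MT replicate 1 the 5 spots of A_54_P2693 had a median of 18.2 units before scaling, against that array's limit of 32.0, and 10.4% of its negative control spots read as high or higher. That array and the first array of WT replicate 1 had the widest negative controls, with standard deviations of 5.61 and 6.63 by Feature Extraction against 2.91 to 3.76 on the others. The part of this spread in the 3p values was not tested. Without MT replicate 1 the difference from control was 5.59, and without MT replicate 2 it was 14.4.

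The 3 other probes of the 3p arm gave smaller differences. In A_54_P2691 the scaled signal was 5.00 and 5.15 in MT and 0.638 and 1.44 in control, with 2.45 and 1.39 in WT. In A_54_P2692 it was 3.47 and 3.65 in MT and 1.56 and 0.471 in control, with 6.54 and 2.74 in WT. In A_54_P2690 it was -0.0964 and 3.24 in MT and 0.486 and 1.28 in control, with -0.456 and 2.83 in WT. MT lay above control without overlap in 3 of the 4 probes, and WT did so in A_54_P2692 and A_54_P2693. Among the 1465 mouse probes detected on no array, 15.8% had MT and 13% had WT above control without overlap, and the 4 probes are readings of the same RNA samples. All of these values lay below the floor of 16.9 scaled units (4.08 on the log2 scale), the typical lowest signal of a detected probe on an array. On the log2 scale used for testing, both arms therefore sat at the floor in all 6 RNA samples, no fold change was computed, and neither entered the test across miRNAs.

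**Figure D4:**
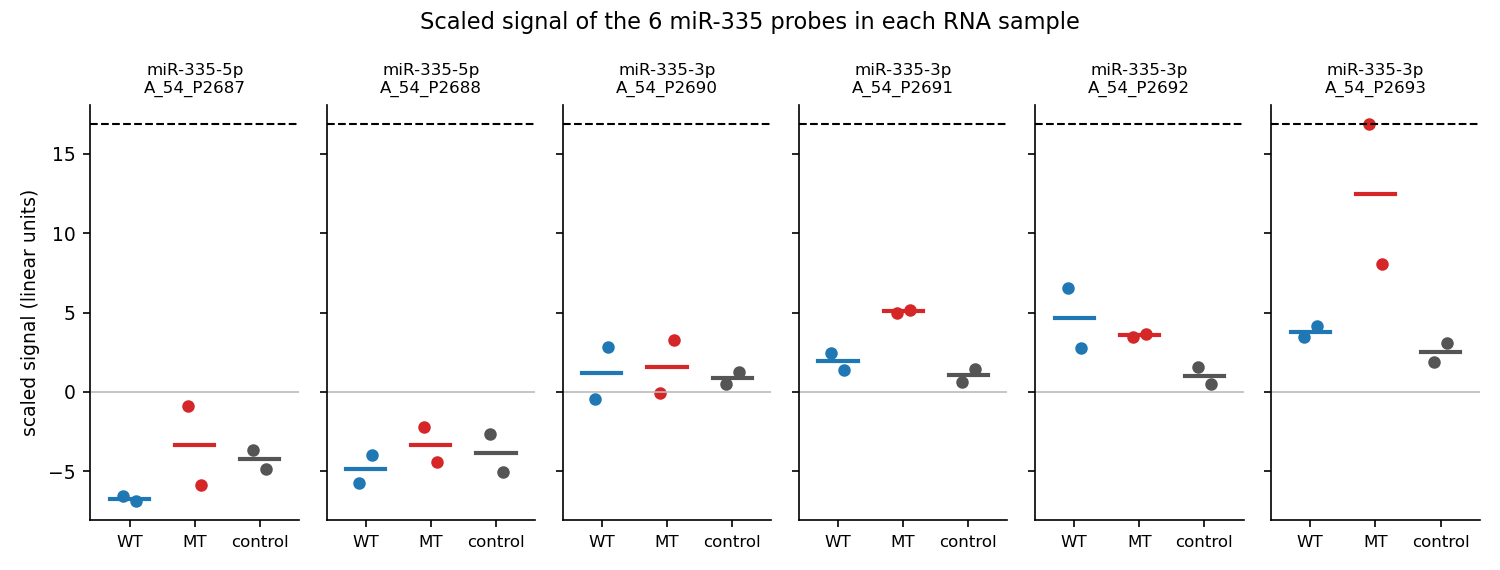
Scaled signal (linear units) of the 2 probes of miR-335-5p and the 4 probes of miR-335-3p in each RNA sample, with a line at the mean of each group of 2. The dashed line is the floor of 16.9. The WT points average the 2 arrays of an RNA sample, and in A_54_P2693 the MT samples (16.8 and 8.08) lie above the other groups but under the floor.

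The test was run on 142 miRNAs, each detected throughout 1 or more of the groups. With limma and Benjamini-Hochberg adjustment, 0% passed 0.05 in any of the 3 comparisons. Without adjustment, 28.2% of WT and 39.4% of MT differences from control were under 0.05, and 0% of those between WT and MT. The smallest adjusted p was 0.139, 0.0611 and 0.990 in turn. The unadjusted counts against control, 40 (WT) and 56 (MT) of 142, depended on the setting. They were 42 and 60 without scaling, and 3 and 26 with scaling to the 75th percentile of all mouse probes. With a term for the side of the slide they were 4 and 0. The measure of likeness chosen to name miRNAs with a pattern like that of the arms, and the test of the 5p change against the 3p change, both needed an arm above the filter and gave nothing.

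Some other miRNAs reported to target Runx2 had arms that were detected in the same samples. The list named miRNAs, not arms, and took every arm of each on the array, whichever arm the reports concern. Of 19 arms of that list on the array, 6 were detected on at least 1 array and 5 on all 8 (miR-23a-3p, miR-30c-5p, miR-34c-3p, miR-34c-5p and miR-218-5p), and 13, like both arms of miR-335, on none. The sequences of 2 of the 5 are given, with the seed in capitals, to set their seeds beside those of miR-335.
mmu-miR-30c-5p: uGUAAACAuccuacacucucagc
mmu-miR-218-5p: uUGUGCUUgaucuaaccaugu

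None of the 6 tested members of the Runx2 list passed the adjusted test in any comparison. Their median log2 difference from control was -0.06 in WT and -0.17 in MT, beside 0.11 and 0.13 over all 142 miRNAs. This median covers all tested arms of the named miRNAs. In WT and MT, miR-23a-3p differed by -0.06 and -0.08, and miR-30c-5p by 0.01 and -0.27. The values were 0.19 and -0.03 for miR-34c-3p, and -0.05 and 0.12 for miR-135a-1-3p, which was detected on 5 arrays. miR-218-5p, which is also known to act in osteoblast differentiation, had log2 scaled signals of 5.54 and 5.81 in WT, 5.78 and 5.66 in MT and 5.99 and 6.26 in control. Its log2 difference from control was -0.45 (SE 0.18, limma adjusted p = 0.155) in WT and -0.41 (adjusted p = 0.132) in MT, and turned to 0.12 and 0.07 with normexp background correction. miR-34c-5p, of the p53-induced miR-34 family, had 7.87 and 8.10 in WT, 7.96 and 8.001 in MT and 8.39 and 8.36 in control. Its log2 difference was -0.39 (SE 0.15) in both comparisons, with limma adjusted p of 0.159 and 0.106. Without scaling of the arrays, which moved the median of all 142 miRNAs to -0.32 (WT) and -0.50 (MT), both of these passed in both comparisons and miR-30c-5p in that of MT. In that setting 28 (WT) and 46 (MT) of all 142 miRNAs passed, all lower.

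**Figure D5:**
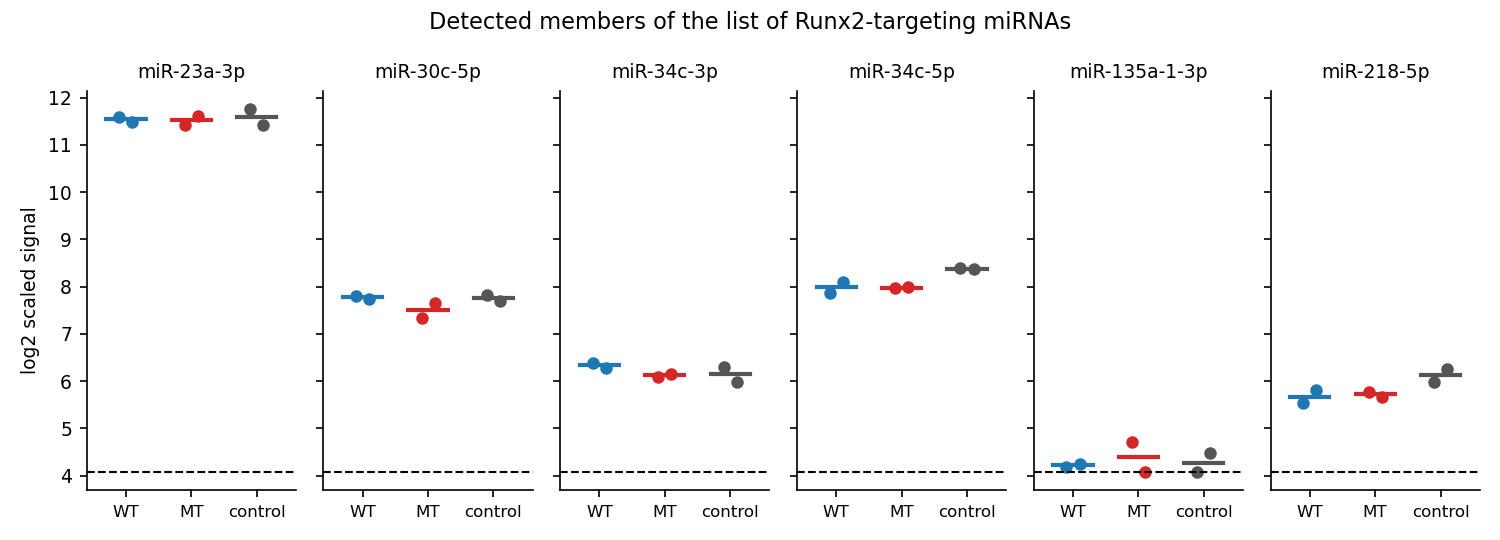
Log2 scaled signal of the 6 tested arms of the list of Runx2-targeting miRNAs in each RNA sample, with a line at the mean of each group of 2. The list took every arm of each named miRNA on the array. The dashed line is the floor at 4.08, where both arms of miR-335 lie in all samples. The difference from control was -0.39 in WT and MT for miR-34c-5p, and -0.45 (WT) and -0.41 (MT) for miR-218-5p. None of the 6 passed the adjusted test. With normexp the difference of miR-218-5p turned to 0.12 (WT) and 0.07 (MT).

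miRNAs of other imprinted loci were mostly undetected as well. Of 7 arms from the Gnas, Igf2 and H19 loci, miR-296-5p (Gnas) was detected on all 8 arrays, miR-298-5p (Gnas) on 1 and the remaining 5, those of miR-483 (Igf2) and miR-675 (H19) and miR-296-3p, on none. miR-296-5p had log2 scaled signals of 6.16 and 5.98 in WT, 6.25 and 6.26 in MT and 5.75 and 5.55 in control. Its log2 difference was 0.42 (SE 0.16, limma adjusted p = 0.140) for WT and 0.60 (adjusted p = 0.0611) for MT against control, and turned to -0.07 and -0.05 without scaling. With normexp it passed in both comparisons, at 0.50 (limma adjusted p = 0.0438) for WT and 0.55 (adjusted p = 0.0127) for MT. With that setting 22 (WT) and 40 (MT) of all 142 miRNAs passed, and the undetected arms of miR-335 rose against control as well. miR-296-5p also passed for MT when detection on every array was required or RNA sample was a random block, as did 29 and 11 miRNAs in all.

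A further list held all arms on the array of miRNAs with a reported role in osteoblast differentiation, whichever arm the reports concern. Of these 28 arms, 12 were tested and 10 were detected on all 8 arrays. None passed the adjusted test in any comparison, and their median log2 difference was 0.10 for WT and 0.08 for MT against control. The largest WT difference of the 12 was that of miR-29b-3p, -1.06 (SE 0.22, limma adjusted p = 0.139), with -0.89 (adjusted p = 0.0611) for MT. The largest MT difference was that of miR-210-3p, 0.997 (SE 0.57, limma adjusted p = 0.219), with 0.48 (adjusted p = 0.564) for WT. Its control samples lay far apart, at 9.03 and 7.16, and it passed for MT with normexp. miR-29b-3p passed in both comparisons without scaling, but in neither with normexp. For MT it also passed with detection on every array required or RNA sample as a random block. miR-21-5p, an abundant miRNA of mesenchymal cells, differed by -0.89 (SE 0.28, limma adjusted p = 0.139) for WT and by -0.71 (adjusted p = 0.106) for MT. It passed in both comparisons without scaling, at -1.38 (limma adjusted p = 0.00808) and -1.37 (adjusted p = 0.00336), and with normexp, at -0.94 and -0.77, and for MT without MT replicate 2. miR-214-3p, which is known to inhibit osteoblast function, differed by 0.49 (SE 0.15, limma adjusted p = 0.139) for WT and by 0.78 (adjusted p = 0.0611) for MT, and by -0.0025 and 0.12 without scaling. It passed for MT with normexp (0.69, limma adjusted p = 0.00264), with detection on every array required, with RNA sample as a random block and without MT replicate 2. In this list, 3 of the 12 members passed for WT and 5 for MT without scaling, all lower, and 1 and 3 with normexp. Of all 142 miRNAs, 28 (WT) and 46 (MT) passed without scaling, also all lower, and 22 and 40 with normexp.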

How the data were processed

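One slide of 8 Agilent arrays, read in 1 colour, measured the miRNAs. The authors deposited the Feature Extraction output of each array, with the background-subtracted intensity of every spot, and a table that equals it to within 0.005 signal units. The Feature Extraction version was 10.7.1.1 per the file headers and 9.1 per the labels, and the genome build in the headers was mm9. The sources used here do not state how the authors normalized these values.

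After removal of control spots and of marked outliers, the spots of a probe were averaged. Arrays were scaled to their 75th percentile over 174 probes (those detected on every array), floored at 16.9 and log2 transformed. The brightest probe represented a miRNA, and the 2 arrays of a WT sample were averaged. All 3 groups were fitted together in limma 3.58.1 (R 4.3.3; lmFit, eBayes, Benjamini-Hochberg over 142 miRNAs, threshold 0.05). The arms of miR-335 did not pass its filter, so they were compared as scaled signals before the floor, with exact permutation tests. Array signals carry no read depth, and the 2 RNA samples per group, not the number of arrays, limit the precision of the group comparisons. Figures were drawn with matplotlib 3.10.9.

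The rule named both arms, any miRNA sharing their seed, and the members of 3 lists, written from general knowledge, that were detected on all arrays. Outside this rule, and chosen after their values were seen, the text names miR-7646-5p and miR-6986-3p (shorter seed), let-7f-5p, miR-450a-5p and miR-290-3p. The same holds for miR-135a-1-3p, and for members of the imprinted list detected on fewer arrays or none. Examples from the lists were also chosen after their values were seen. The arms, lists and tests were chosen with earlier results of these data known. Sequences and coordinates come from RefSeq (GRCm38.p6), which held 476 of the 611 miRNA names (77.9%), too few for a check of base composition over all miRNAs. The alternatives covered scaling, background correction, floor, filter, probes, outliers, technical arrays, blocks, slide side and left-out replicates. The slide position of the groups was fixed: WT in row 1, MT in columns 1 and 2 and control in columns 3 and 4 of row 2, so for MT and control, side and group cannot be told apart.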

Additional observations from a re-analysis of the deposited data

Results flagged for a closer look

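The induced groups had 10 spot readings of the miR-335 arms well above background, and the control group had 0 of 80. All 10 were marked as outliers and so lay outside the comparisons. They were spread over 5 arrays, with 4 readings on the arrays of WT replicate 1, 1 on an array of WT replicate 2, 3 on that of MT replicate 1 and 2 on that of MT replicate 2. Over all mouse probes detected on no array, such readings were 1.34% in WT, 3.07% in MT and 1.23% in control. The count was 5 without the 2 arrays with the widest negative controls, an alternative chosen after seeing the data. The difference between the groups was not tested.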

How the results depend on the processing

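Neither arm was detected on any array under Feature Extraction's own detection flag or with outlier spots kept. The differences in scaled signal of the arms, which no exact test of 2 samples against 2 can call, moved by more than the replicate SD under some alternatives. For miR-335-5p, WT against control gave 0.487 without scaling, 0.794 with quantile normalization, 0.856 with the first and -2.87 with the second technical array. Its MT against control gave 5.63 with outlier spots kept and 2.24 with a term for slide side. Only the 2 WT samples set that term, since MT and control each lay on a single side. The value thus carries the difference between the WT samples and does not separate group from side. Its WT against MT gave -3.34 with A_54_P2687, -5.28 with outlier spots kept, and 0.337 and -3.39 with the first and second technical arrays. For miR-335-3p, WT against control gave 0.318 without scaling, 0.494 with quantile normalization, 0.306 with A_54_P2690, 3.62 with A_54_P2692, 9.79 with outlier spots kept, and 0.411 and 2.19 with the first and second technical arrays. Its MT against control gave 4.31 with the mean of all probes, and 0.689, 4.04 and 2.55 with A_54_P2690, A_54_P2691 and A_54_P2692. Its WT against MT gave -2.78 with that mean, -0.383, -3.16 and 1.07 with those probes, and -0.0913 with outlier spots kept. Normexp, which adds 50 units before scaling, gave 31.7, 27.8 and 3.85 (5p) and 33.4, 31.3 and 2.08 (3p) for WT minus control, MT minus control and WT minus MT. Total gene signal gave identical values in the 2 arms, 0.026, 0.032 and -0.0061 for WT minus control, MT minus control and WT minus MT. They were therefore not read as measured differences of the arms. Leaving out 1 replicate gave 3p differences of 5.59 to 14.4 (MT minus control), 0.703 to 1.90 (WT minus control) and -13.1 to -4.29 (WT minus MT). The floor, filter, trend and random block could not give a value for the arms, and no likeness or difference between the arms could be computed.

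The adjusted calls, 0 in each comparison, rose for WT and MT against control to 28 and 46 without scaling (all lower), to 22 and 40 with normexp (20 and 34 higher), to 4 and 4 with total gene signal and to 1 and 1 at 0.5 times the floor. For MT against control they were 29 when detection on every array was required and 11 with RNA sample as a random block. Leaving out 1 replicate gave 0 calls for WT against control, 0 to 18 for MT against control and 0 to 1 for WT against MT, the higher counts without MT replicate 2. The cause was not tested. The replicate block gave 0 calls in each comparison. It could not move the differences of the arms, since every group had 1 sample of each replicate number. Same-numbered samples deviated together by r = 0.0223 (WT and MT), 0.39 (WT and control) and -0.464 (MT and control), so the numbers were not taken as pairs, and the crossed pairing, chosen after seeing the data, gave 0 calls for MT against control.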
